A study of Mus musculus with 38 samples.

Results

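The genes of lipid droplets and of triglyceride turnover were measured in the left ventricle of a mouse model of HFpEF, heart failure in which the ejection fraction is preserved. The group holds 10 genes of the 29564 listed, chosen by name for their function while earlier results of these data were known. They include the droplet coat proteins Plin2, Plin3, Plin4 and Plin5, the droplet protein Cidea, and the lipases Pnpla2 and Lipe. The inhibitor G0s2 and the triglyceride synthases Dgat1 and Dgat2 complete the group. All 10 passed the filter on low counts, as did 13765 genes in all. RNA came from 38 wild-type C57BL6 mice (C57BL/6J in the study's methods), 1 library per mouse, in 4 groups: non-failing mice given vehicle (NF, n = 8), and HFpEF mice given vehicle (HFpEF+Veh, n = 8), TYA-018, which inhibits HDAC6 (HFpEF+TYA-018, n = 11), or empagliflozin, which inhibits SGLT2 (HFpEF+SGLT2i, n = 11). HFpEF had been induced with a high-fat diet and L-NAME, a blocker of nitric oxide synthesis, so that diet and L-NAME separate every HFpEF group from NF and cannot be told apart. The title of the deposited series gives 3 months of treatment, the study's methods give a shorter course, and the labels give no age.

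Heart muscle burns mostly fatty acids, and it stores a small reserve of them as triglyceride in lipid droplets. DGAT1 and DGAT2 add the last acyl chain, perilipins coat the droplet and control access to it, and ATGL, the product of Pnpla2, cuts the first chain off again. G0S2 binds ATGL and blocks it, while hormone-sensitive lipase, the product of Lipe, acts on the diglyceride that ATGL leaves. Perilipin 5 is the coat protein of oxidative tissues, where it holds droplets near mitochondria, and CIDEA, best known from brown fat, lets small droplets pass their lipid to larger ones.

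The genes lie on 6 chromosomes of the mouse (GENCODE M21, GRCm38), and all 10 are annotated as protein coding. Plin4 (chr17:56100591-56109803), Plin5 (chr17:56111601-56117596) and Plin3 (chr17:56277476-56292873) share a stretch of the minus strand. Plin2 is at chr4:86648386-86670060, G0s2 at chr1:193272161-193273217 and Dgat1 at chr15:76502015-76511953, all on the minus strand. Chromosome 7 carries Pnpla2 (chr7:141455198-141460743, plus strand), Lipe (chr7:25379527-25398710, minus strand) and Dgat2 (chr7:99153658-99182719, minus strand). Of the 10, Lipe shares 918 exonic bases with 4732471J01Rik, an antisense gene on the other strand, and Plin4 shares 17 with Hdgfl2. The kit kept the strand of the RNA. How the quantification used it is not given in the sources used here, so reads of the antisense gene in the level of Lipe cannot be told apart.

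Sequence upstream of the transcription start is shown for Plin2, Plin4, Plin5 and Pnpla2, whose RNA was higher in both drug-treated HFpEF groups than in NF. Cidea was also higher in both, but no upstream sequence was found for it in the source used. The windows (RefSeq, GRCm38.p6) run up to 250 bases before the RefSeq start and stop short of the annotated gene, just before its first base except for Pnpla2, where they stop at the RefSeq start, which lies upstream of the annotated gene. They cover chr4:86670061-86670309, chr17:56109804-56110032 and chr17:56117597-56117798 on the minus strand and chr7:141454938-141455187 on the plus strand. Capitals mark the hexamer AGGTCA or its reverse complement TGACCT, the element that nuclear receptors such as the PPAR family bind in pairs.
Plin2: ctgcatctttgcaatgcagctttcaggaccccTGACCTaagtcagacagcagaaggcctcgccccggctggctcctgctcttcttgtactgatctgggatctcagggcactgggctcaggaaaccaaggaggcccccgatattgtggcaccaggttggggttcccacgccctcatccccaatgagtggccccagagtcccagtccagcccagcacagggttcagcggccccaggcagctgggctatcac
Plin4: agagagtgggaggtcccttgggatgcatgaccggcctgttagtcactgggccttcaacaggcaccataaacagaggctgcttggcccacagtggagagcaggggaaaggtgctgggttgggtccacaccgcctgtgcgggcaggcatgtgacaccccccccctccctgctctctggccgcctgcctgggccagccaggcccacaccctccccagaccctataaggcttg
Plin5: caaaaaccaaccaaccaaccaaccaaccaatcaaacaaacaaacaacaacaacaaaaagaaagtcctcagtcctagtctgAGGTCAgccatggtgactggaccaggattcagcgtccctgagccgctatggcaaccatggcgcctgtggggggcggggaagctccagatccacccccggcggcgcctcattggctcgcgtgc
Pnpla2: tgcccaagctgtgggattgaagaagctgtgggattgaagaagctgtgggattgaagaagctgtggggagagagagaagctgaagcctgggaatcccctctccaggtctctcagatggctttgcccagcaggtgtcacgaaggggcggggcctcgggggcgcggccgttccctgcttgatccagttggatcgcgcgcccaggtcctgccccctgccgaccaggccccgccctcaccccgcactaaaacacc
The first base of TGACCT lay 218 bases before the RefSeq start of Plin2, and that of AGGTCA lay 170 bases before the start of Plin5. The other Plin5 window, at a RefSeq start inside the annotated gene (chr17:56117249-56117548), held a different match, which is not shown. Windows of 250 bases before to 50 after the start were found for 7 of the 10 genes (9 windows), all but Cidea, Dgat1 and Dgat2. Of these 7 genes only Plin2, in its window, and Plin5, in both of its windows, held the hexamer on either strand. Counted by window, 16.3% of all 32851 windows held it. The direct repeat of the hexamer with 1 base between the copies (DR1), present in 0.0396% of all windows, and TATAAA, present in 13.6%, were in none of the 9. A match of letters describes the window and does not show that a factor binds there.

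Libraries held about 21500000 to 59300000 counts (median 29500000), and each of the 10 genes had at least 55 counts in every library. Summed TPM of 8 cardiomyocyte markers ran from 18300 to 34400, with medians of 31400 in NF, 26100 with vehicle, 27700 with TYA-018 and 26200 with empagliflozin, and 4, 1 and 4 of the 8 markers were called lower than NF in those HFpEF groups. The summed medians of 4 endothelial markers were 1630, 2340, 2060 and 2150 TPM in the same order, nearly all of it Fabp4 (1500, 2200, 1930 and 2030), while Kdr had medians of 28.9 in NF and 21.3 with TYA-018, and 0, 1 and 0 of the 4 were called higher than NF. The sums of 5 macrophage markers had medians of 83.2, 95, 87.7 and 91, with 0 called. Those of 4 fibroblast markers, mostly Dcn, had medians of 232, 287, 222 and 248, and 2, 1 and 1 of the 4 were called higher than NF, Lum having medians of 12.4, 20.8, 15.5 and 15.7. The 4 atrial markers summed to at most 8.24 TPM, and 1 of the 3 that passed the filter was called higher than NF in each HFpEF group. Of the adipocyte markers, Plin1 reached at most 0.0605 TPM, Adipoq 0.307 and Ucp1 0.116 in any library, and 0 of 5 brown fat markers passed the filter, although of the white fat list Thrsp lay between 7.99 and 21.8 TPM and Adig between 0.931 and 3.73 TPM over all libraries. The medians of Adig were 1.33 TPM in NF and 2.06, 2.01 and 2.02 in the HFpEF groups, and 0 of the 2 white fat markers that passed the filter were called in any of the 6 comparisons. Library V2523 of HFpEF+Veh carried liver transcripts, with a hepatocyte marker sum of 1760 TPM against at most 40.5 in the other vehicle libraries. Calls of the main test for droplet and pathway genes named in comparisons with this group are also given without V2523. Some calls of other fits, such as those without the filter on low counts, are given with V2523 only. The NF libraries carried more of the same 13 hepatocyte markers (27.2 to 437 TPM) than HFpEF+TYA-018 (1.66 to 4.39) or HFpEF+SGLT2i (2.08 to 9.91). The part of any of these cells in the values of the droplet genes was not tested. In homogenates, fewer cells of a type and less RNA per cell cannot be told apart.

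Pnpla2 was the most abundant of the 10 transcripts, at a median of 123 TPM over the 38 libraries, above 97.1% of the genes tested. It was followed by Dgat2 (73.6), G0s2 (57.7), Plin5 (38.9), Plin2 (29.7), Cidea (26.6), Plin3 (19.7), Plin4 (17.9) and Dgat1 (16.8). Lipe was rare, at 1.38 TPM. TPM gives transcripts relative to all transcripts of a library and is corrected for length, so these levels can be set beside each other. Rescaled to the same total without mitochondrially encoded genes, every level of a library rises by 1 shared factor, between 1.56 and 1.88 over the 38 libraries (medians of 1.63 in NF, 1.63 with vehicle, 1.66 with TYA-018 and 1.64 with empagliflozin), which leaves the order and the ratios within a library as they are. The ranges over the 38 libraries overlapped for each pair of neighbours in this order except the last, since Dgat1 never fell below 12 TPM and Lipe never exceeded 3.98. The coat genes ran from 8.67 TPM (Plin4, NF) to 72.7 TPM (Plin5, HFpEF+SGLT2i).

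**Figure D1:**
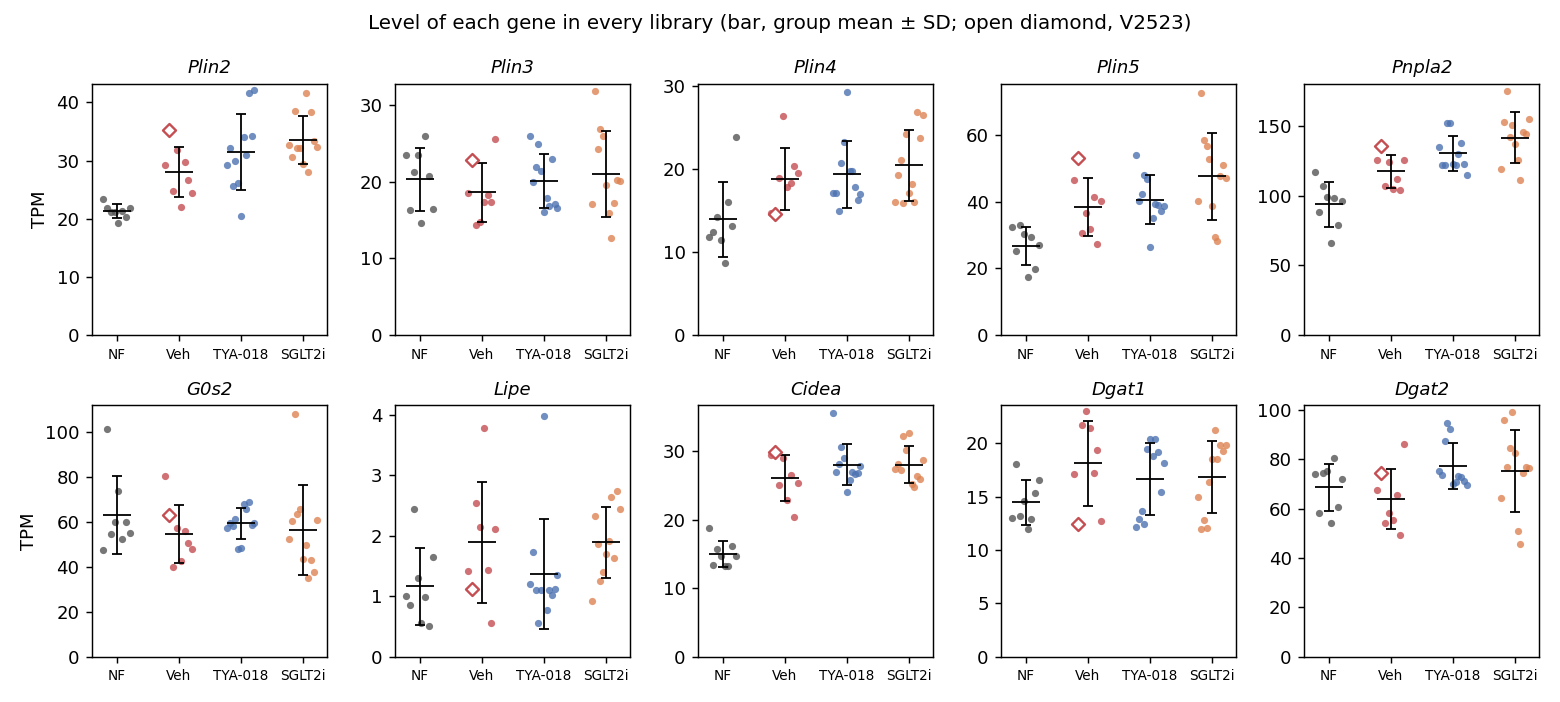
TPM (vertical axis, from 0) of each gene in every library, with points for libraries, bars for the group mean ± SD (n = 8, 8, 11 and 11) and an open diamond for V2523. Cidea in NF (13.2 to 18.7 TPM) lay below every library in each of the other 3 groups, whereas Plin3, G0s2 and Dgat2 overlapped between all groups.

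The first comparison asked what the HFpEF model did to these genes without a drug. Cidea and Plin2 were higher in HFpEF+Veh than in NF, by 1.61-fold and 1.34-fold, and the other 8 genes did not pass the test. That is 2 of 10 genes called at an adjusted p under 0.05, against 3.15% of all genes tested (edgeR quasi-likelihood test, Benjamini-Hochberg adjustment, as for every adjusted p that names no other tool). At an unadjusted p under 0.05 there were 4 of 10, beside 15.9% of all genes. The median log2 fold change of the 10 was 0.29, beside 0.01 over all genes.

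Cidea (chr18:67343604-67367785, plus strand) had the smallest adjusted p of the 10 genes. Its level ran from 13.2 over a median of 14.7 to 18.7 TPM in NF, and from 20.4 over 25.9 to 29.9 TPM in HFpEF+Veh. The groups did not overlap, which held for 0.472% of the genes tested in this direction. The log2 fold change was 0.69 (SE 0.08, adjusted p = 4.98e-07), and 0.66 (adjusted p = 2.89e-06, 4.49% of all genes called) without V2523, which had the highest level of its group. Leaving out any other library kept the estimate between 0.66 and 0.75.

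Plin2, the coat protein that follows triglyceride content in many cells, ran from 19.3 over 21.3 to 23.4 TPM in NF and from 22 over 28 to 35.3 TPM in HFpEF+Veh. NF libraries were tightly grouped, and 7 of 8 vehicle libraries lay above all of them. Its log2 fold change was 0.43 (SE 0.10, adjusted p = 0.00704) and 0.39 (adjusted p = 0.0126) without V2523. The call was lost when the deposited effective lengths entered as an offset (log2 fold change 0.29, adjusted p = 0.13) and on log2(TPM + 1) with limma (0.37, adjusted p = 0.0529). The effective length of Plin2, the part of its transcripts that reads could start from, had a median of 1109 bases in NF and 1134 in HFpEF+Veh, while that of Cidea went from 957 to 913.

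The remaining coat genes and the lipases gave smaller or noisier values. Plin5 ran from 17.3 over 28.2 to 32.9 TPM in NF and from 27.2 over 38.4 to 53.3 in HFpEF+Veh, with a log2 difference of 0.39 (SE 0.17, adjusted p = 0.218). On log2(TPM + 1) with limma, Plin5 (0.50, adjusted p = 0.0378) and Pnpla2 (0.33, adjusted p = 0.0123) passed, in a fit that called 3.24% of its genes. Without V2523 this fit called Pnpla2 (0.31, adjusted p = 0.0232) but not Plin5 (0.44, adjusted p = 0.0697), with 3.66% of its genes called. Plin4 was at 0.36 (SE 0.15, adjusted p = 0.213), which passed (0.50, adjusted p = 0.0421) only when NF library V2510, the highest of its group at 23.9 TPM, was left out. Pnpla2, at 0.18 (SE 0.10, adjusted p = 0.371), and Dgat1, at 0.21 (SE 0.10, adjusted p = 0.32), did not pass. Values for Plin3 (-0.20), G0s2 (-0.34) and Dgat2 (-0.22) were negative, with adjusted p-values of 0.531, 0.316 and 0.414. For Lipe the estimate was 0.58, but its 95% interval reached from -0.06 to 1.23.

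The drug-treated HFpEF hearts were next compared with NF, to see where these genes stood at the end of treatment. Cidea, Plin2, Plin5, Plin4 and Pnpla2 were higher than NF in HFpEF+TYA-018, and the same 5 genes were higher in HFpEF+SGLT2i. Called genes thus made up 5 of 10 in each comparison, against 7.39% of all genes for TYA-018 and 6.45% for empagliflozin. Both comparisons use the same 8 NF libraries and so are not independent of each other. Median log2 fold changes of the 10 genes were 0.39 and 0.56, beside 0.01 over all genes in both.

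Cidea was 1.94-fold higher in HFpEF+TYA-018 (log2 fold change 0.96, SE 0.08, adjusted p = 6.35e-11) and 1.87-fold higher in HFpEF+SGLT2i (0.90, SE 0.08, adjusted p = 1.35e-10). Its level ran from 24.0 over 26.9 to 35.5 TPM with TYA-018 and from 24.7 over 27.4 to 32.6 TPM with empagliflozin. All 22 drug-treated libraries lay above all 8 NF libraries. Such separation was seen for 0.298% of genes with TYA-018 and 0.262% with empagliflozin.

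Plin2 was 1.57-fold higher in HFpEF+TYA-018 (log2 fold change 0.65, SE 0.09, adjusted p = 5.6e-06) and 1.64-fold higher in HFpEF+SGLT2i (0.72, SE 0.09, adjusted p = 8.41e-07). It spread widely with TYA-018, from 20.4 over 31.0 to 42.1 TPM, and 10 of 11 libraries lay above NF. With empagliflozin it ran from 28.1 over 32.4 to 41.6 TPM, and all 11 lay above NF.

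Plin5 ran from 26.3 over 39.4 to 54.2 TPM with TYA-018 and from 28.2 over 47.7 to 72.7 TPM with empagliflozin. These levels gave log2 fold changes over NF of 0.63 (SE 0.16, adjusted p = 0.00907) and 0.82 (SE 0.16, adjusted p = 0.000694). In the first group 10 of 11 libraries, and in the second 9 of 11, lay above every NF library.

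Pnpla2 ran from 65.8 over 97.3 to 117 TPM in NF, from 115 over 123 to 152 TPM with TYA-018 and from 111 over 144 to 175 TPM with empagliflozin. Its log2 fold changes were 0.49 (SE 0.09, adjusted p = 0.000643) and 0.58 (SE 0.09, adjusted p = 8.22e-05). Plin4 was 1.46-fold higher in each group, with log2 fold changes of 0.55 (SE 0.14, adjusted p = 0.0129) and 0.54 (SE 0.14, adjusted p = 0.0148). Its groups overlapped the most of the 5, since only 1 library with TYA-018 and 3 with empagliflozin exceeded the highest NF library.

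None of the other 5 genes passed against NF in the main test. Dgat1 came closest in HFpEF+TYA-018 (log2 fold change 0.29, SE 0.10, adjusted p = 0.0585). It passed in 6 of 38 fits that left out 1 library. These include the fit without V2523 (adjusted p = 0.0422, with 8.14% of genes called), although that library is in neither group. Plin3 stayed near 0 in both comparisons, at 0.01 (95% interval -0.26 to 0.29) and 0.05 (-0.22 to 0.33). Dgat2 had estimates of 0.21 and 0.12, and G0s2 of -0.05 and -0.18. Lipe was at 0.66 with empagliflozin, with an interval of 0.06 to 1.27 and an adjusted p of 0.201.

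**Figure D2:**
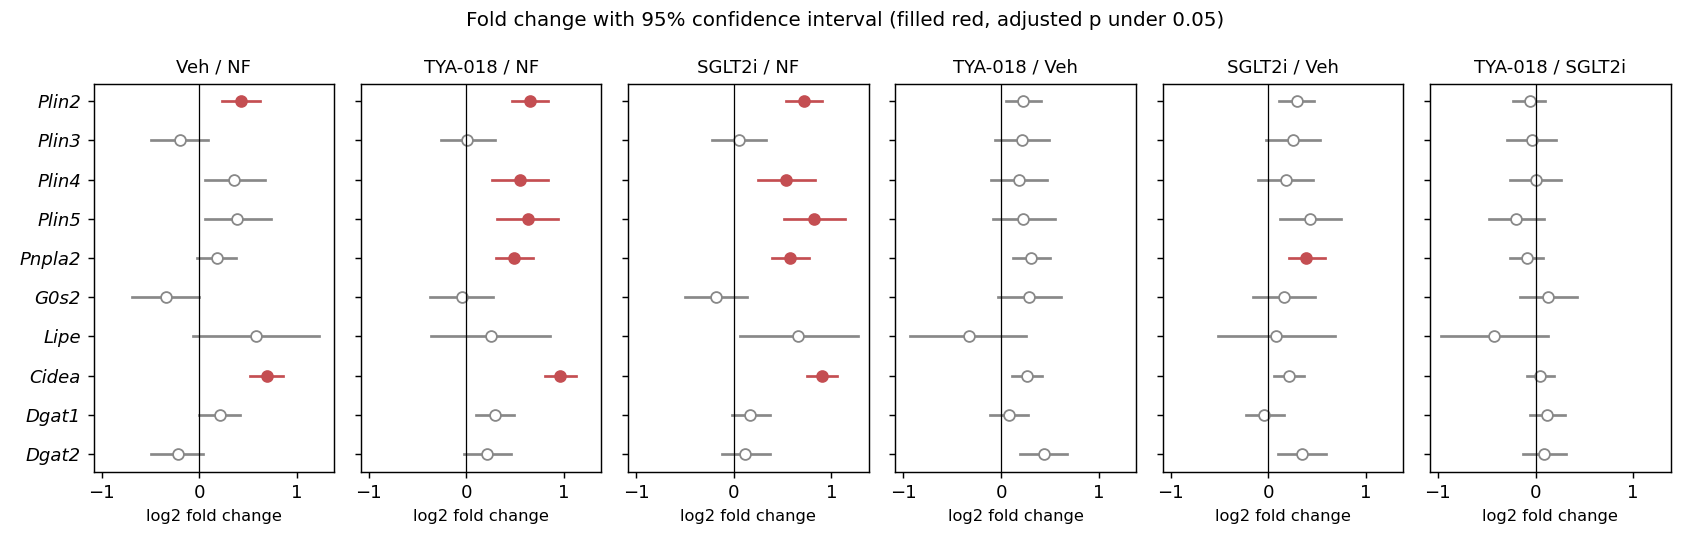
Log2 fold change (horizontal axis) of each gene in the 6 comparisons, with bars for the 95% confidence interval and filled red points for an adjusted p under 0.05. Filled points number 2, 5 and 5 in the comparisons with NF, 0 and 1 in those of TYA-018 and empagliflozin with HFpEF+Veh, and 0 between the drugs.

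Each drug was then compared with vehicle in HFpEF mice, the question being whether treatment moved these genes. With TYA-018, 0 of 10 genes were called by edgeR, against 1.93% of all genes, and 4 had an unadjusted p under 0.05, as did 17.5% of all genes. These 4 were Dgat2, Cidea, Pnpla2 and Plin2, all with positive values. DESeq2 called Dgat2, Cidea and Pnpla2, with 2.92% of genes called in all, and without V2523 it called the same 3 (adjusted p = 0.0202, 0.0169 and 0.021), with 4.12% of genes called.

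Dgat2 ran from 49.5 over 62.0 to 86.3 TPM in HFpEF+Veh and from 69.8 over 73.4 to 94.8 TPM in HFpEF+TYA-018. All 11 treated libraries lay above the vehicle mean, and the groups overlapped. Its log2 fold change was 0.44 (SE 0.12, adjusted p = 0.0507), and it passed in 7 of 38 fits that left out 1 library, with the smallest p without V2532, the highest vehicle library (0.52, adjusted p = 0.0155). The other 6 left out V2502, V2562, V2565, V2570, V2571 or V2572, of which only V2570 is in either group. Cidea was at 0.27 (SE 0.08, adjusted p = 0.0526). It passed in 9 of 38 such fits, without V2501, V2521, V2523, V2550, V2551, V2564, V2570, V2571 or V2572 (adjusted p from 0.0324 to 0.0496). Without V2523 (0.30, adjusted p = 0.0471) it was the only one of the 10, against 1.42% of all genes. Dgat2 was then at 0.47 (adjusted p = 0.0502). Without the filter on low counts both Dgat2 (adjusted p = 0.049) and Cidea (adjusted p = 0.0498) passed, beside 2.83% of the 21871 genes then tested. Pnpla2 was at 0.31 (SE 0.09, adjusted p = 0.0701) and Plin2 at 0.23 (SE 0.09, adjusted p = 0.165). The median of Dgat2 in NF was 73.1 TPM.

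With empagliflozin, 1 of 10 genes was called against HFpEF+Veh, and 0.85% of all genes. That gene was Pnpla2, 1.31-fold higher (log2 fold change 0.39, SE 0.09, adjusted p = 0.0235). It ran from 104 over 118 to 136 TPM with vehicle, and 8 of 11 treated libraries exceeded the highest vehicle library. The call did not survive leaving out V2523 (adjusted p = 0.0822), although the estimate was then larger, at 0.43. Without V2523, 0.0145% of all genes were called by edgeR, while DESeq2 called Pnpla2 (0.43, adjusted p = 0.0118) and 0.326% of all genes. Leaving out V2529, V2530, V2563, V2564 or V2565 also ended the call, with adjusted p-values of 0.0516, 0.0663, 0.0578, 0.0505 and 0.0534. It was lost as well with library size alone (0.31, adjusted p = 0.127), with limma on log2(TPM + 1) (0.29, adjusted p = 0.225) and with only the 2 groups in the fit (0.39, adjusted p = 0.167).

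Plin5 (0.43, SE 0.15, adjusted p = 0.242), Dgat2 (0.35, SE 0.12, adjusted p = 0.226), Plin2 (0.29, SE 0.09, adjusted p = 0.136) and Cidea (0.21, SE 0.08, adjusted p = 0.229) had unadjusted p-values under 0.05 for empagliflozin against vehicle but did not pass. With Pnpla2 that makes 5 of 10, and 10% of all genes. Dgat1 was at -0.04 (95% interval -0.23 to 0.16). Both drug comparisons share the 8 vehicle libraries.

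The drugs were compared with each other directly. Neither these 10 genes nor any other gene was called by edgeR (0% of 13765 genes), and 0 of the 10 had an unadjusted p under 0.05, against 13.2% of all genes. DESeq2 called 0 of the 10 and 187 other genes (1.36%). Intervals for TYA-018 over empagliflozin were narrow for Cidea (-0.09 to 0.19), Plin2 (-0.23 to 0.10), Pnpla2 (-0.26 to 0.08) and Dgat1 (-0.06 to 0.30). They were wider for Plin5 (-0.48 to 0.09) and widest for Lipe (-0.97 to 0.13).

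The balance between the members was described from TPM ratios within each library, with no test. The summed level of Plin2 to Plin5 ran from 59.8 over 87.8 to 92.9 TPM in NF, from 88.6 over 108 to 126 in HFpEF+Veh, from 92.0 over 109 to 127 with TYA-018 and from 85.0 over 129 to 154 with empagliflozin. Of the treated libraries, 10 of 11 in each group exceeded every NF library. Plin3, the perilipin that sits in the cytosol until it joins young droplets, made up a median of 25.1% of that sum in NF. Its share was 17.5% in HFpEF+Veh (17.0% without V2523), 18.2% with TYA-018 and 16.1% with empagliflozin, and 5 of 8, 7 of 11 and 7 of 11 libraries lay below every NF library. Plin5 held the largest median share in each group, at 32.4%, 36.2%, 36.6% and 37.9% in the same order.

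The inhibitor G0s2 stood at a median of 0.589 transcripts per transcript of its target Pnpla2 in NF (range 0.405 to 1.14). The ratio was 0.462 in HFpEF+Veh (0.376 to 0.636), 0.476 with TYA-018 (0.316 to 0.559) and 0.394 with empagliflozin (0.263 to 0.621). In the empagliflozin group 7 of 11 libraries lay below every NF library, against 2 of 8 with vehicle and 3 of 11 with TYA-018. The highest NF ratios were those of V2502 (1.14) and V2507 (1.12), and the next was 0.754 (V2509). G0s2 itself was not called in any comparison of the main test. Dgat2 exceeded Dgat1 in every library. The median ratio was 4.85 in NF (range 3.21 to 6.21) and 3.21 in HFpEF+Veh (2.49 to 6.82). It was 4.62 with TYA-018 (3.42 to 7.64) and 4.30 with empagliflozin (2.4 to 7.97), so that all groups overlapped. The vehicle median was 2.59 without V2523, and 4 of 8 vehicle libraries lay below every NF library while 1 lay above. The highest vehicle ratios were those of V2532 (6.82) and V2523 (6), and the next was 3.96 (V2521). Neither Dgat1 (adjusted p = 0.32) nor Dgat2 (adjusted p = 0.414) was called for HFpEF+Veh against NF. Within groups, the median effective length of a library correlated with Dgat1 (r = -0.8) and Dgat2 (r = 0.61). The part of that length in the ratio of Dgat2 to Dgat1 was not tested.

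**Figure D3:**
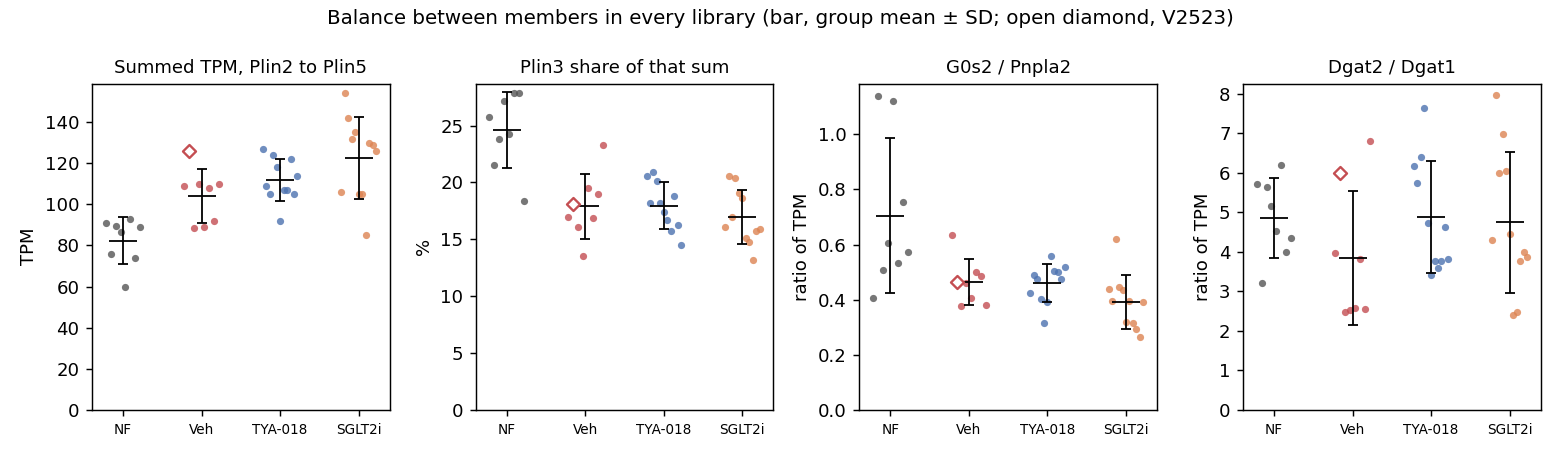
Summed TPM of the 4 perilipins, the share of Plin3 in it (in %), and the TPM ratios of G0s2 to Pnpla2 and Dgat2 to Dgat1 (vertical axes from 0) in every library, with bars for the group mean ± SD and an open diamond for V2523. The Plin3 share is highest in NF (18.4 to 27.9%), and the ratio of G0s2 to Pnpla2 spreads most in NF.

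Within groups, some members moved together from mouse to mouse. Over the 38 libraries, with group means removed, Pearson's r on log2 CPM (counts relative to library size) was 0.85 for Plin5 and Pnpla2, 0.83 for Plin3 and Dgat2, 0.80 for Plin5 and Dgat2 and 0.79 for Pnpla2 and Dgat2. Without V2523 these were 0.84, 0.83, 0.79 and 0.78. Dgat1 ran against this block, with r of -0.60 with Plin5 and -0.57 with Plin3. Plin2 was apart, with r of -0.03 with Plin5 and -0.11 with Pnpla2. Properties of the libraries moved with the same genes, and their part in these correlations was not tested. Deviations in log2 depth correlated with Plin3 (0.68), Dgat2 (0.65), Plin5 (0.52), Pnpla2 (0.52) and Dgat1 (-0.46). Deviations in the median effective length of a library correlated with Plin5 (0.70), Plin3 (0.68), Pnpla2 (0.64), Dgat2 (0.61) and Dgat1 (-0.80), but little with Plin2 (-0.16), Cidea (0.27) or G0s2 (0.09).

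**Figure D4:**
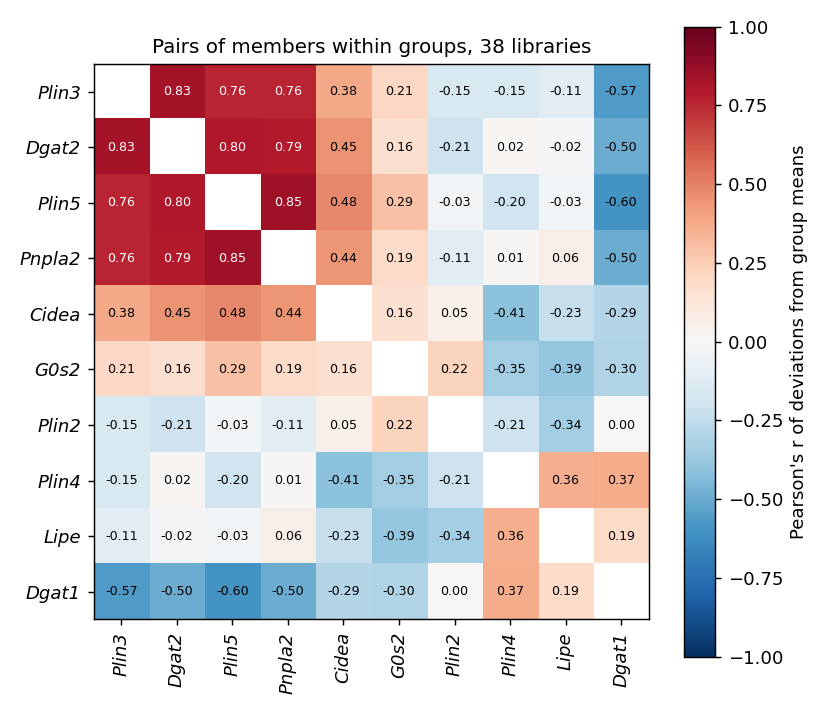
Pearson's r (colour and printed value) of log2 CPM between each pair of genes over 38 libraries after group means were removed. Plin3, Dgat2, Plin5 and Pnpla2 form a block with r between 0.76 and 0.85, and Dgat1 is negative with each of them (-0.50 to -0.60).

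The median effective length ran from 1925 to 2188 bases in NF, 1930 to 2338 in HFpEF+Veh, 1806 to 2246 with TYA-018 and 2008 to 2396 with empagliflozin. Entered as a covariate in edgeR, a fit chosen after the data were seen, it left Cidea, Plin2, Plin5, Plin4 and Pnpla2 called against NF in both drug groups, where 9.52% (TYA-018) and 12.4% (empagliflozin) of all genes were called. It added Dgat2 with TYA-018 (log2 fold change 0.32, adjusted p = 0.034) and Dgat1 with empagliflozin (0.23, adjusted p = 0.0131). For HFpEF+Veh against NF it added Plin5 (0.45, adjusted p = 0.0222), with 4.34% of genes called. For TYA-018 against vehicle, Dgat2 (0.51, adjusted p = 0.00575), Pnpla2 (0.36, adjusted p = 0.0072) and Cidea (0.28, adjusted p = 0.0228) passed, 3 of 10 against 6.15% of all genes. Pnpla2 kept its call for empagliflozin against vehicle (0.31, adjusted p = 0.0216), where 1.12% of genes were called. Without V2523 this fit kept Plin5 against NF (0.40, adjusted p = 0.0499, beside 5.56% of genes called). It called 4 of 10 for TYA-018 against vehicle, beside 8.06% of all genes, namely Dgat2 (0.53, adjusted p = 0.00735), Pnpla2 (0.38, adjusted p = 0.00735), Cidea (0.31, adjusted p = 0.0177) and Plin5 (0.37, adjusted p = 0.0435). The call of Pnpla2 for empagliflozin against vehicle was lost (0.34, adjusted p = 0.0635), where 0.145% of genes were called.

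Other genes of the pathway were taken from a list of 42, chosen with earlier results of these data known, of which 34 passed the filter. Against NF, 1 of 34 was called in HFpEF+Veh (higher), 9 with TYA-018 (8 higher, 1 lower) and 7 with empagliflozin (7 higher). These are 2.94%, 26.5% and 20.6% of those tested, beside 3.15%, 7.39% and 6.45% of all genes. With library size alone in place of TMM scaling 3 were called in each drug group, beside 6.57% (TYA-018) and 4.77% (empagliflozin) of all genes. The count fell to 4 with TYA-018 without V2555 and to 5 without V2509 or V2510. It fell to 4 with empagliflozin without V2502, V2504, V2507, V2508, V2509 or V2561. The share of all genes called in these fits is not given here. A fall in these genes alone and fewer calls everywhere thus cannot be told apart. Hsd17b11, a dehydrogenase family protein found on droplets, was the gene called with vehicle and was called in each of the 3 comparisons with NF. Its log2 fold change was 0.64 (adjusted p = 0.000275) with vehicle (0.53, adjusted p = 0.000501, without V2523), 0.72 (adjusted p = 6.09e-06) with TYA-018 and 0.87 (adjusted p = 1.36e-07) with empagliflozin, and all 30 HFpEF libraries lay above every NF library. Such separation from NF held for 0.472% of genes tested with vehicle, 0.298% with TYA-018 and 0.262% with empagliflozin.

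Of the acyltransferases that make the precursor of triglyceride, Agpat2 (0.55 with TYA-018, adjusted p = 0.00173, and 0.48 with empagliflozin, adjusted p = 0.00626) and Agpat3 (0.40, adjusted p = 0.0103, and 0.48, adjusted p = 0.00216) were called in both. Abhd6, which cleaves monoglycerides, passed with TYA-018 (0.47, adjusted p = 0.0239), and Nceh1, a cholesteryl ester hydrolase, passed with both TYA-018 (0.43, adjusted p = 0.0268) and empagliflozin (0.42, adjusted p = 0.0325). The gene that fell was Acsl4 with TYA-018 (-0.27, adjusted p = 0.0465), named outside the rule for its direction. Against vehicle, 1 of 34 passed with TYA-018 (2.94%, beside 1.93% of all genes), which was Agpat1 (0.25, adjusted p = 0.0104). Without V2523, Agpat1 (0.26, adjusted p = 0.03) and Agpat2 (0.42, adjusted p = 0.0343) passed, 2 of 34 beside 1.42% of all genes. Limma on log2(TPM + 1) and log2(TPM + 0.1) called 0 of these genes, Agpat1 included, and 0.302% and 0.173% of all genes, whereas the fit with the length covariate called 5, beside 6.15%. With empagliflozin 0 of 34 passed, beside 0.85% of all genes, and between the drugs 0 of 34, beside 0%. Abhd5, which switches ATGL on, was not called in any comparison, and Plin1, Cidec and Gpam were among the 8 that did not pass the filter.

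**Figure D5:**
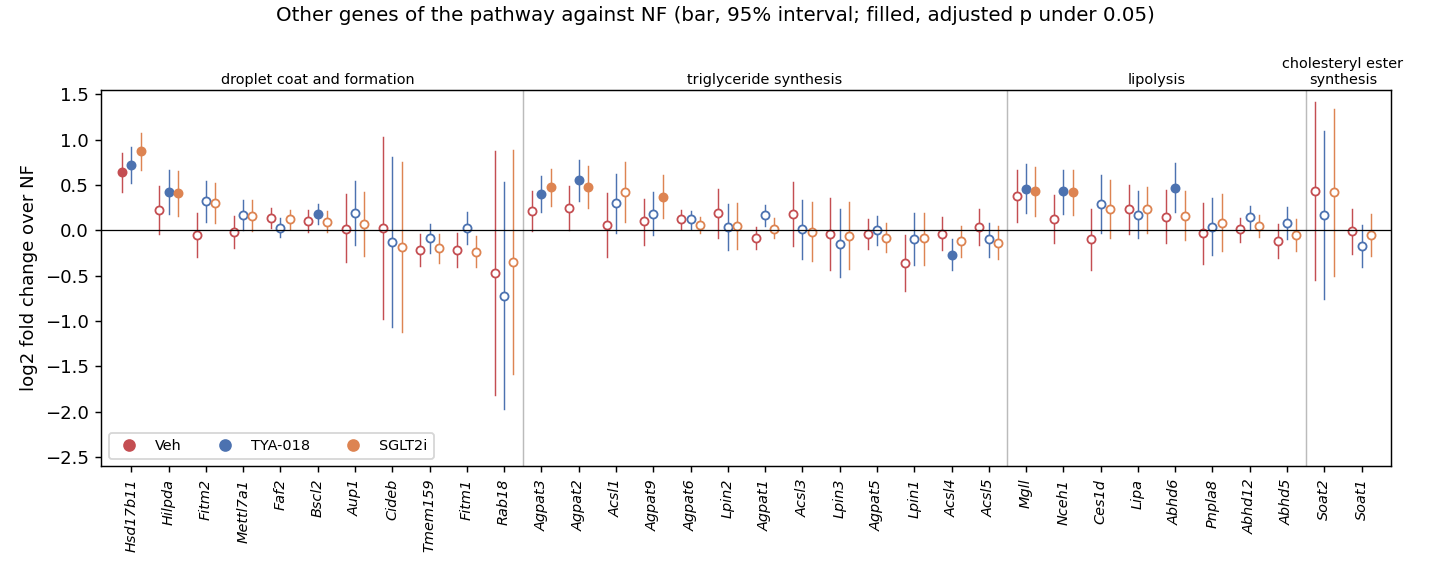
Log2 fold change over NF (vertical axis) of the 34 other pathway genes tested, in the vehicle, TYA-018 and empagliflozin groups, with bars for the 95% confidence interval and filled points for an adjusted p under 0.05. Hsd17b11 is filled in all 3 groups, at 0.64, 0.72 and 0.87, and all other filled points are in the drug-treated groups.

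The genes whose log2 CPM followed each called member most closely over the 38 libraries were also listed, among 11121 genes, as a description. Plin2 followed Hsd17b11 (r = 0.90) and Angptl4 (0.89), an inhibitor of lipoprotein lipase. Plin5 followed Slc25a20 (0.95), the mitochondrial carnitine carrier, and Hadha (0.95), a subunit of the trifunctional protein of fatty acid oxidation. Pnpla2 followed Crat (0.94), carnitine acetyltransferase, and Acadvl (0.91), the very long chain acyl-CoA dehydrogenase. With group means removed these 6 values were 0.71, 0.69, 0.94, 0.93, 0.89 and 0.82. Cidea followed Fbp2 (0.92), a fructose bisphosphatase of muscle, and Chrna2 (0.89), and these fell to 0.45 and 0.38 within groups. For Plin4 the values were 0.79 with Mafg and 0.76 with Gpr160, and 0.73 and 0.63 within groups. The points share library, depth and effective length.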

How the data were processed

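Left ventricular poly(A) RNA of 38 mice was sequenced, and the authors quantified it with salmon 1.6.0 against mouse transcripts after trimming and summed it to genes with tximport. Read length (100 bases per the labels), read layout, sex and genome build differ between the labels and the study's methods, and none entered a test. The authors deposited expected counts per gene, TPM values scaled by the authors over all transcripts of a library, and effective lengths (other) in bases per gene and library. Unmapped columns numbered 0.

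Expected counts were rounded, filtered with filterByExpr (minimum count 10) and scaled with TMM factors, and 6 comparisons were tested with the two-sided quasi-likelihood test of edgeR 4.0.16 (R 4.3.3) in 1 model of the 4 groups. The threshold for a call was 0.05 after Benjamini-Hochberg adjustment over 13765 genes. The SE is the log2 fold change over the root of F, and intervals are 95%. The mouse numbers gave no pairing. Libraries are separate mice per the labels, and 0 of 166 pairs within groups held identical values. Log2 CPM used a prior count of 2.

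The members, lists and tests were chosen with earlier results of these data known. All 10 members were named. Of the other pathway genes, up to 4 called genes per comparison were named by smallest p, and for each called member the 2 most correlated genes with an average log2 CPM of at least 1. Alternatives were DESeq2 1.42.0, library size alone, no filter, a length offset, limma 3.58.1 on log2(TPM + 1), the scale of the study, and on log2(TPM + 0.1), both over genes counted in at least 90% of libraries and rescaled without mitochondrially encoded genes (the study also kept only protein-coding genes, which was not done here), only the 2 groups compared, and each library left out in turn. The median effective length as a covariate was added after the data were seen, as were DESeq2, limma and the covariate fit without V2523. The test was tested on simulated data, where it did not exceed the recovery of 2-fold changes first required, and the requirement was then lowered. Marker lists covered white and brown adipocytes, hepatocytes, cardiomyocytes, atrial cells, endothelium, macrophages and fibroblasts. Protein sequences were not used here.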

Additional observations from a re-analysis of the deposited data

How the results depend on the processing

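No paired analysis was possible because the groups share no replicate numbers. Against NF, the calls of Cidea, Plin2, Plin5, Plin4 and Pnpla2 in both drug groups and of Cidea and Plin2 with vehicle held in each of 38 fits without 1 library. Of the 10 genes, the length offset called 1 for HFpEF+Veh against NF, beside 3.17% of all genes. For TYA-018 against vehicle DESeq2 called 3 (beside 2.92% of all genes), no filter 2 (2.83%) and the length covariate 3 (6.15%). For empagliflozin against vehicle 0 were called with library size alone (beside 1.08%) and with limma on log2(TPM + 1) (0%). Limma on log2(TPM + 0.1) and the fit with only the 2 groups compared also called 0 (counts over all genes are given below). Without 1 library the number of the 10 called ran from 0 to 2 for TYA-018 and from 0 to 1 for empagliflozin. For the other pathway genes the share of all genes called in the same fit stands in brackets. TYA-018 against vehicle gave 2 by DESeq2 (2.92%), 2 with library size alone (7.96%) and 2 without a filter (2.83%). It gave 0 by limma with either pseudocount (0.302% and 0.173%) and 5 with the covariate (6.15%). Empagliflozin against vehicle gave 1 without a filter (2.09%). TYA-018 against NF gave 3 with library size alone (6.57%) and 4 by limma with either pseudocount (counts over all genes are given below). Empagliflozin against NF gave 3 with library size alone (4.77%), 4 with the length offset (5.88%) and 3 with only 2 groups (share not given here). Without 1 library the counts of these pathway genes ran from 1 to 2 (HFpEF+Veh against NF), 1 to 2 (TYA-018 against vehicle), 4 to 9 (TYA-018 against NF) and 4 to 7 (empagliflozin against NF). For these ranges and those of the 10 genes, the share of all genes called is not given for each of the 38 fits.

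The sign turned in the following values, none of which passed the test. For TYA-018 against vehicle, Dgat1 was at -0.04 with library size alone and -0.10 by limma with either pseudocount. For TYA-018 against empagliflozin, Plin4 was at -0.05 with library size alone, -0.02 with the length offset, -0.08 by limma and -0.07 with the covariate, Cidea at -0.01 by limma, and Dgat1 at -0.03 by limma and -0.05 with the covariate. With the covariate Plin3 was at 0.18, Plin5 at 0.06 and Pnpla2 at 0.04 in that comparison, Dgat1 at 0.08 for empagliflozin against vehicle and Plin3 at -0.03 for empagliflozin against NF. Plin3 for TYA-018 against NF was at -0.04 with library size alone. Without V2523, Plin4 was at -0.01 and Dgat1 at -0.18 by limma for TYA-018 against vehicle, and Lipe at -0.01 by DESeq2 and Dgat1 at 0.04 with the covariate for empagliflozin against vehicle. Without 1 library, ranges that crossed 0 were -0.05 to 0.31 (Lipe) and -0.09 to 0.03 (Dgat1) for empagliflozin against vehicle, -0.09 to 0.03 (Plin3) and -0.09 to 0.04 (Plin4) between the drugs, -0.03 to 0.07 (Plin3), -0.09 to 0.05 (G0s2) and -0.04 to 0.48 (Lipe) for TYA-018 against NF, and -0.02 to 0.11 (Plin3) for empagliflozin against NF. The cause of these changes was not tested.

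Library size alone moved the median of all genes from -0.01 to -0.14 for TYA-018 against vehicle, and the share of higher genes among those called from 43.2% to 2.28% (54% by DESeq2). That share went from 56.1% to 79.5% for HFpEF+Veh against NF, from 54.2% to 28.5% for TYA-018 against NF and from 15.4% to 2.68% for empagliflozin against vehicle (29.1% by DESeq2). Counts over all genes for TYA-018 against vehicle were 266 in the reported test, 402 by DESeq2, 1096 with library size alone, 618 without a filter, 42 and 24 by limma, 58 with 2 groups and 847 with the covariate. For empagliflozin against vehicle they were 117, against 457 without a filter, 0 by limma, 3 with 2 groups and 2 without V2523. Between the drugs they were 0, against 187 by DESeq2, 5 with the length offset and 364 with the covariate. Against NF they were 1017 for TYA-018, with 597 and 616 by limma, and 888 for empagliflozin, with 527 and 558 by limma and 1710 with the covariate. Rescaling TPM without mitochondrially encoded genes multiplies every level of a library by 1 shared factor (1.56 to 1.88), which moved all 40 mean levels by over 1 SD. Leaving out V2523 moved 0 of 10 vehicle means that far.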
